A study of Homo sapiens with 3 samples.

Results

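The TLE and HDAC corepressor genes examined here were TLE1, TLE2, TLE3, TLE4, HDAC3, HDAC4, HDAC5, HDAC6 and HDAC7, 9 of the 20163 protein-coding genes of GENCODE release 44 mapped to GRCh37. They were chosen by name, as genes of corepressors known to act with RUNX2, and every RUNX2 or CBFB peak with any base within 25 kb of the gene body was taken as a peak of that gene. The data were lists of chromatin immunoprecipitation sequencing (ChIP-seq) peaks in SAOS2, a human osteosarcoma cell line that lacks p53. The cells were untreated, were kept in DMEM with 10% serum and had undergone fewer than 20 passages. RUNX2 was precipitated with a custom-made antibody and CBFB with an antibody from Bethyl, and input DNA, made with no antibody, was not analysed here. Each antibody had 1 library in 1 cell line, so no p-value was computed, and what follows describes these libraries alone. The lists hold no read counts, so the depth is unknown, and a peak says nothing of whether the gene near it was expressed.

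RUNX2 is the DNA-binding transcription factor that drives the osteoblast lineage, and CBFB is the common beta subunit of the RUNX factors. The RUNX proteins both activate and repress. For repression, they recruit proteins of the Groucho/TLE family, which bind a short peptide at the RUNX C-terminus, and histone deacetylases, which remove acetyl groups from histones and other proteins. TLE1 to TLE4 are full-length Groucho corepressors. HDAC3 is a class I deacetylase that works as the catalytic subunit of nuclear receptor corepressor complexes. HDAC4, HDAC5 and HDAC7 are class IIa enzymes that shuttle between nucleus and cytoplasm, and HDAC4 is a known restraint on RUNX2 in cartilage. HDAC6 is a class IIb, mainly cytoplasmic deacetylase of tubulin. The question here was whether the genes of these partners themselves carried RUNX2 and CBFB in osteosarcoma cells.

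RUNX2 peaks lay at 6 of the 9 genes, and CBFB peaks lay at all 9 of them. TLE4 had 6 RUNX2 peaks, TLE1 had 5, HDAC4 had 3, HDAC5 had 2, and HDAC6 and HDAC7 had 1 each. TLE2, TLE3 and HDAC3 had no RUNX2 peak. All 18 RUNX2 peaks had a CBFB peak over them, as did 94.2% of the whole RUNX2 list. Both families were thus mixed, with a RUNX2 peak at 2 of the 4 TLE genes and 4 of the 5 HDAC genes. Of all protein-coding genes, 36.0% had a RUNX2 peak and 62.2% had a CBFB peak within 25 kb.

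The sequences below are RUNX sites under these peaks. They show what the RUNX core motif, TGTGGT, or ACCACA on the other strand, looked like at each gene that had one in the chosen peak. For a gene with RUNX2 peaks, the highest-scoring RUNX2 peak that held a core anywhere is shown. For TLE2 and TLE3, which had no RUNX2 peak, the highest-scoring CBFB peak that held a core is shown. HDAC3 has none, because the single CBFB peak near it held no core. Each is the copy nearest to the peak midpoint with 20 bases to either side, read 5′ to 3′ from GRCh37 on the strand that reads TGTGGT, with every core copy in capitals. None overlaps an annotated exon.
TLE1, RUNX2 peak, chr9:84174791-84174836, plus strand: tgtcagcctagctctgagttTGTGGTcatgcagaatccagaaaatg
TLE2, CBFB peak, chr19:3035253-3035298, minus strand: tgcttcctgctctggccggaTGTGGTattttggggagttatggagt
TLE3, CBFB peak, chr15:70394246-70394291, plus strand: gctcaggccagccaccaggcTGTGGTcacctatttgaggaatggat
TLE4, RUNX2 peak, chr9:82301695-82301740, plus strand: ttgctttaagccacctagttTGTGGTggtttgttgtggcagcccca
HDAC4, RUNX2 peak, chr2:240169542-240169587, minus strand: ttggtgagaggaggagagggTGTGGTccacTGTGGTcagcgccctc
HDAC5, RUNX2 peak, chr17:42174677-42174722, plus strand: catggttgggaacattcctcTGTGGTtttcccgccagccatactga
HDAC6, RUNX2 peak, chrX:48659517-48659562, plus strand: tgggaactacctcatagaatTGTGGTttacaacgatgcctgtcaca
HDAC7, RUNX2 peak, chr12:48193873-48193918, minus strand: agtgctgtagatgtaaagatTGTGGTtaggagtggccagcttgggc

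In these lines the core lay 17 bp from the peak midpoint in TLE1, 22 bp in TLE2, 53 bp in TLE3, 107 bp in TLE4, 16 bp in HDAC4, 219 bp in HDAC5, 373 bp in HDAC6 and 54 bp in HDAC7. The HDAC4 line holds a second copy on the same strand. A match to the core is a string of letters that was not shown to be bound, and RUNX1 and RUNX3 share it. Over the whole RUNX2 list, 43.2% of the peaks held a core within 100 bp of the midpoint, while 14.6% of windows of the same length 5 kb away did.

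**Figure D1:**
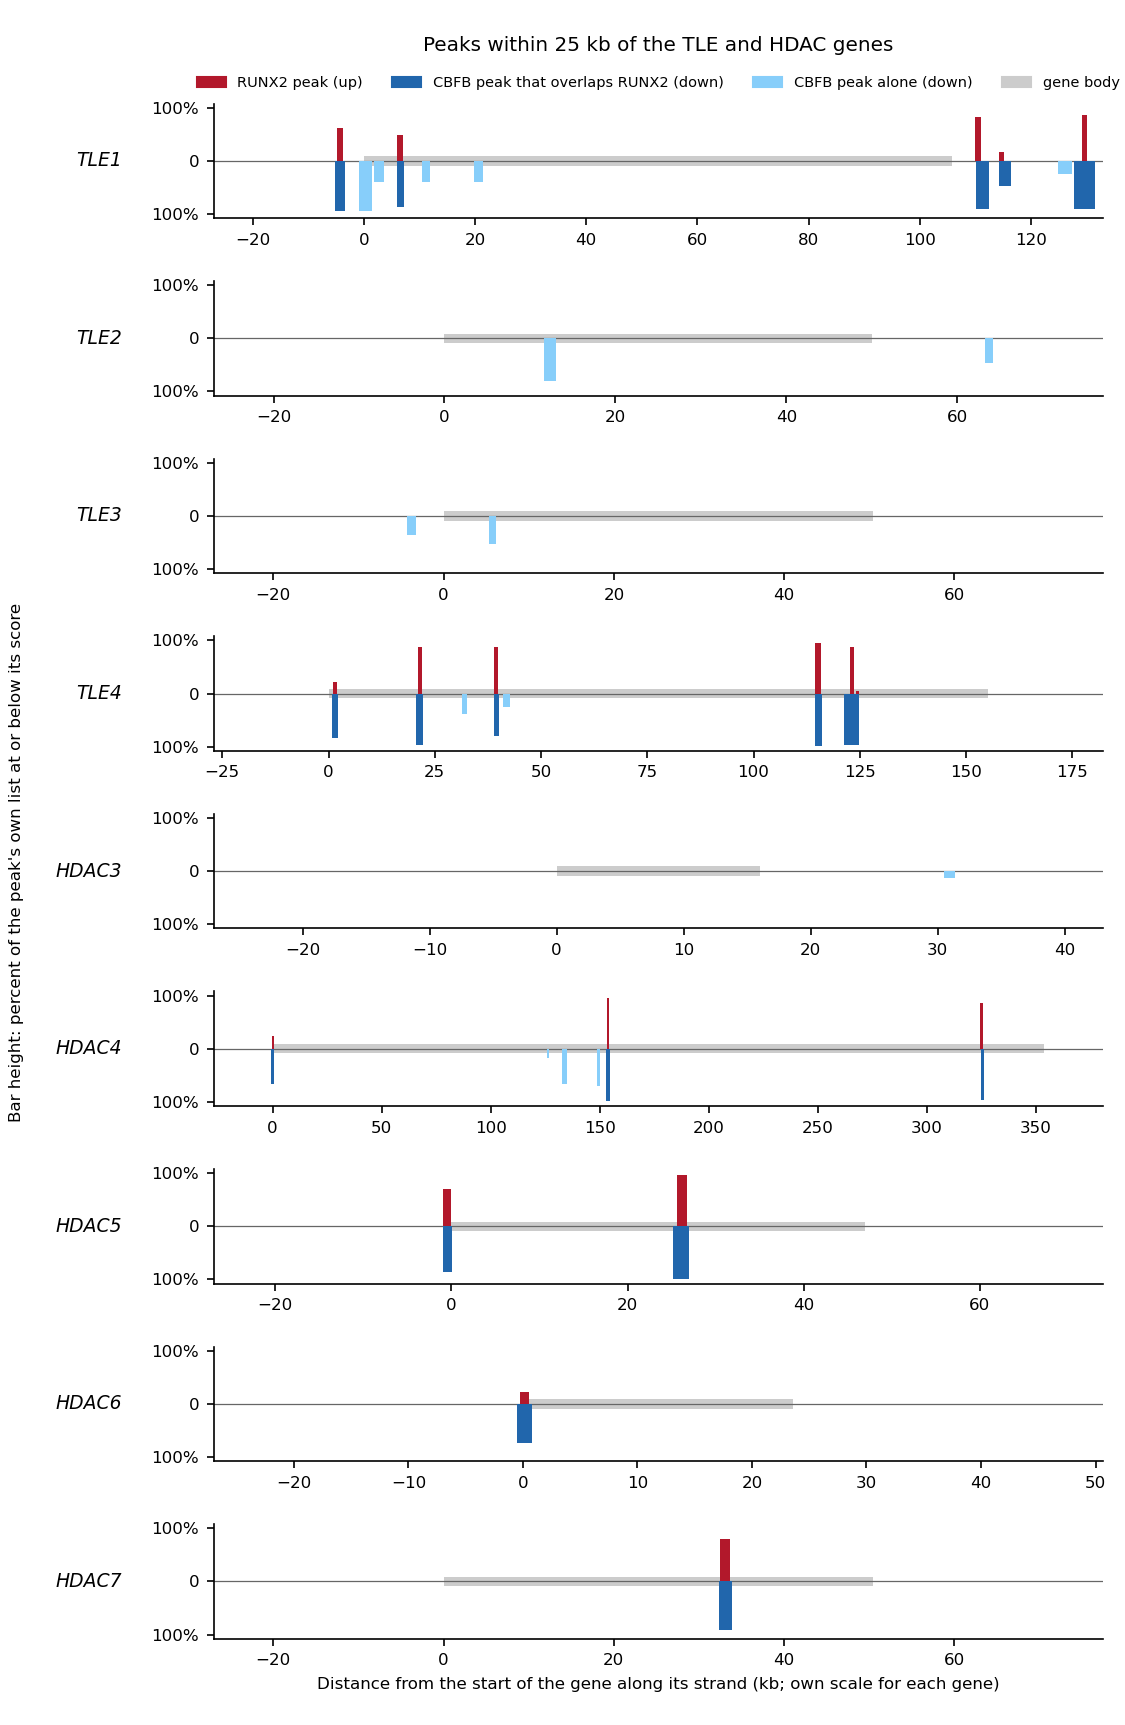
Map of the peaks at each of the 9 genes, drawn along the gene from its start (0 kb on the x axis, own scale for each gene). Bars stand at the peaks and their height is the percent of the peaks in the same list that score at or below them, upward for RUNX2 and downward for CBFB (dark, overlapping a RUNX2 peak; light, not overlapping one). TLE4 and TLE1 hold 6 and 5 RUNX2 peaks, whereas TLE2, TLE3 and HDAC3 have CBFB bars only.

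TLE4, which encodes a Groucho corepressor, lies on the plus strand of chr9:82186688-82341797 and had the most RUNX2 peaks of the 9 genes. The peak scores given by the authors' caller were 60.72, 186.38, 191.51, 296.98, 190.12 and 52.36 in the order of the gene. The score ran from 50 to 3100 in both lists, and it is read here only by its rank within a list. The 4 high peaks scored as high as or higher than 87.7%, 88.5%, 95.9% and 88.2% of the RUNX2 list, and the low peaks than 22.1% and 5.71%. All 6 lay inside the gene. The lowest but 1 sat at an annotated start, with its midpoint 4 bp from it, in a UTR or noncoding exon at chr9:82187826-82188606. The other 5 were in introns.

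The strongest TLE4 peak, at chr9:82301160-82302490, had its midpoint 115137 bp into the gene and 17735 bp upstream of the nearest internal start. It held 4 cores, the nearest of which is the one printed. The CBFB peak over it scored 1038.45, as high as or higher than 98.0% of the CBFB list. The peaks at chr9:82207717-82208753 and chr9:82309367-82310265 each held 2 cores within 100 bp of the midpoint, and the CBFB peaks over them scored 1020.32 and 899.61. The peak at chr9:82225634-82226662 held 1 core and was paired with a lower CBFB score of 274.26. The weakest RUNX2 peak, 446 bp further along than the 190.12 peak, fell under the same wide CBFB peak of 899.61, chr9:82307986-82311538, so these 2 RUNX2 peaks share a partner. CBFB had 2 more peaks in TLE4 with no RUNX2 peak, with scores of 96.55 and 74.77.

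TLE1, another Groucho corepressor, lies on the minus strand of chr9:84198598-84304462. It had 5 RUNX2 peaks on both ends of the gene and none in its middle. Before the start, 4302 bp upstream and within an intron of the divergent transcript TLE1-DT, a peak at chr9:84308150-84309379 scored 99.73. Inside the gene, 6467 bp from its start and in an intron, a peak at chr9:84297469-84298522 scored 83.27 and held 2 cores within 100 bp. The other 3 lay past the gene end in intergenic DNA, at distances of 4103 bp, 8455 bp and 23324 bp, with scores of 159.18, 57.25 and 180.56. The outermost, chr9:84174389-84175274, was the highest and carries the TLE1 core printed above. The gaps between these 3 peaks were 3304 bp and 13977 bp. TLE1 was the nearest gene with a protein-coding start for all of them.

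The TLE1 start itself behaved differently in the 2 lists. A CBFB peak at chr9:84302923-84305366, with its midpoint 318 bp from a start, scored 659.02, as high as or higher than 94.7% of the CBFB list. It had no RUNX2 peak over it, and it held no core in its 2444 bp. It was the highest-scoring CBFB peak without RUNX2 at any of the 9 genes. TLE1 had 10 CBFB peaks in all, and 5 of them had no RUNX2 peak, the other 4 with scores of 74.51, 97.30, 99.42 and 99.36. The last of these, chr9:84300783-84302656, was also near a start, with its midpoint 564 bp from one and in an intron, and held no core. The CBFB peaks over the RUNX2 peaks scored 623.66 upstream of the gene and 375.87 in the intron, then 457.51, 114.23 and 475.36 past the gene end, in order away from it.

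TLE2 and TLE3, the Groucho genes with no RUNX2 peak, had 2 CBFB peaks each. TLE2 lies on the minus strand of chr19:2997637-3047633, and the RUNX2 peak nearest to it was 137 kb away. Its higher CBFB peak, chr19:3034598-3035999, scored 281.00 (80.3% of the list at or below it), lay in an intron and holds the TLE2 core printed above. The lower one scored 113.37 and lay in an exon of the neighbouring gene TLE6, 13228 bp past the end of TLE2. TLE3 lies on the minus strand of chr15:70340129-70390515, with the nearest RUNX2 peak 86.9 kb away. Its CBFB peaks scored 126.79, in an intron 2367 bp from an annotated start, and 90.26, 3807 bp upstream of the gene, where the printed TLE3 core lies. These ranks, 52.0% and 35.4%, are near the middle of the CBFB list or below it.

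HDAC4, the class IIa deacetylase, spans 353 kb on the minus strand of chr2:239969864-240323348 and is the longest of the 9 genes. Its 3 RUNX2 peaks scored 61.83, 295.62 and 177.76 in the order of the gene. The first was at the gene start, with its midpoint 170 bp from it and in a UTR or noncoding exon, and it held no core. The strongest, chr2:240168968-240170194, lay in an intron 153767 bp into the gene and held 3 cores within 100 bp of its midpoint. At least 3 cores within that distance were present in 1.79% of the RUNX2 list. The CBFB peak over it scored 1402.52, the highest CBFB score at the 9 genes, with 99.1% of the list at or below it.

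The whole 201 bases around the midpoint of that HDAC4 peak are shown because they hold all 3 cores, and beside them those around the midpoint of the HDAC5 start peak, which held none. This pair was chosen after the values were seen. Both are read from the plus strand of GRCh37 and overlap no exon. Capitals mark TGTGGT or ACCACA in the HDAC4 window and, in the HDAC5 window, CCGGAA, the core of a site for ETS factors.
HDAC4, chr2:240169481-240169681: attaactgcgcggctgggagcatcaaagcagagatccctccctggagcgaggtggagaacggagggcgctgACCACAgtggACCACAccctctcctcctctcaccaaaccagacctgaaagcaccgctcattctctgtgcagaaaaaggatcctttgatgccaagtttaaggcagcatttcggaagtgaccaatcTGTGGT
HDAC5, chr17:42201470-42201670: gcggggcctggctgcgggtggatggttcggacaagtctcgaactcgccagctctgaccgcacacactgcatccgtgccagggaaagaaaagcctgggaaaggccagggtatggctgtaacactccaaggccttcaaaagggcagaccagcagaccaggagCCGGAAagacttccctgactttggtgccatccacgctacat

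The remaining HDAC4 peak, chr2:239997669-239998833, lay 325097 bp into the gene and 4580 bp downstream of an alternative start, in an intron, with a core 30 bp from its midpoint. The CBFB peaks over it and over the gene start scored 738.59 and 181.30. HDAC4 also had 3 CBFB peaks with no RUNX2 peak, with scores of 203.24, 176.54 and 65.18.

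HDAC5, also of class IIa, lies on the minus strand of chr17:42154114-42201070. It had the highest-scoring RUNX2 peak of the 9 genes, 313.16, with 96.4% of the list at or below it. This peak, chr17:42174349-42175489, lay in an intron 26151 bp into the gene and 4046 bp upstream of an alternative start. It held 3 cores, none of them within 100 bp of the midpoint. The other RUNX2 peak, at chr17:42201090-42202051, had its midpoint 500 bp upstream of the gene start and scored 115.96 (70.1%). The CBFB scores over these peaks were 1308.13 and 353.51, and HDAC5 had no CBFB peak without RUNX2.

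HDAC7, the last class IIa member, lies on the minus strand of chr12:48176505-48226915. Its single RUNX2 peak, chr12:48193263-48194420, scored 146.98 (80.8%) under a CBFB score of 515.38. The peak lay in an intron 33074 bp from the gene start and 918 bp upstream of an alternative start, with the printed core 54 bp from its midpoint. The first start of HDAC7 had no peak in either list within 5 kb.

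HDAC6, the tubulin deacetylase, lies on the plus strand of chrX:48659784-48683392. Its single RUNX2 peak, chrX:48659491-48660336, was at the gene start, with its midpoint 110 bp from the nearest annotated start. It scored 61.17 (22.9%), the lowest top score among the 6 genes with RUNX2, and the CBFB peak over it scored 225.72. HDAC3, the class I deacetylase, lies on the minus strand of chr5:141000443-141016416 and had the least signal. The nearest RUNX2 peak was 99.1 kb away and scored 53.83. Its only CBFB peak scored 61.51 (13.6%) and lay 14531 bp past the gene end, in an intron of DIAPH1.

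**Figure D2:**
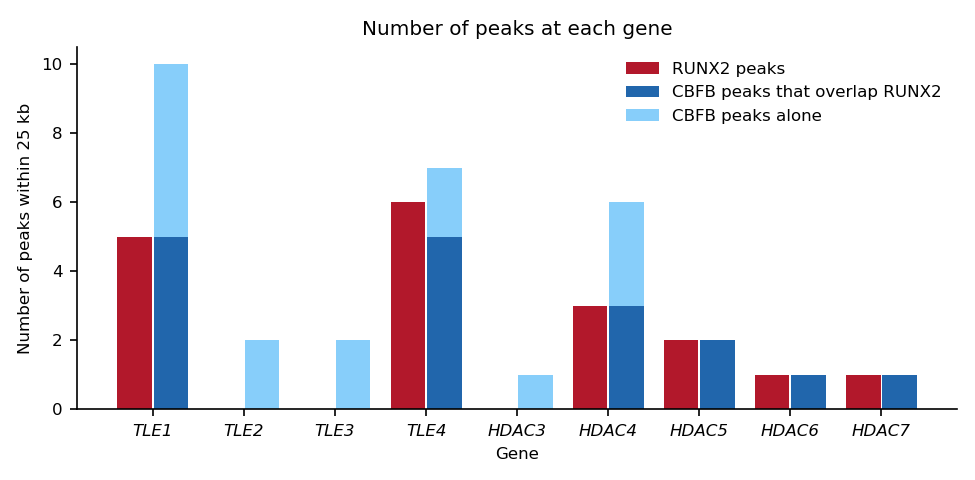
Number of peaks within 25 kb of each gene (y axis), with RUNX2 peaks in red and CBFB peaks in blue, the dark part of which overlaps a RUNX2 peak. The bars run from 6 RUNX2 peaks at TLE4 to 0 at TLE2, TLE3 and HDAC3, and from 10 CBFB peaks at TLE1 to 1 at HDAC3, HDAC6 and HDAC7.

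To place these numbers, the genes were set beside all protein-coding genes. The mean number of RUNX2 peaks was 2.00 over the 9 genes and 0.614 over all genes, and the medians were 1 and 0. For CBFB the means were 3.56 and 1.66 and the medians 2 and 1. The number at TLE4 was at or above that of 99.6% of genes, at TLE1 of 99.2%, at HDAC4 of 97.5% and at HDAC5 of 94.4%. Both TLE1 and TLE4 exceeded what most genes had, since 1.32% of all genes had at least 5 RUNX2 peaks.

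The 9 genes differ in length, and longer genes had peaks more often. Genes were therefore divided by length into 5 classes of equal size. In the longest class, over 90.3 kb, TLE1, TLE4 and HDAC4 had a RUNX2 peak (3 of 3), against 49.0% of that class. In the next class, from 39.5 to 90.3 kb, HDAC5 and HDAC7 had one and TLE2 and TLE3 had none (2 of 4), against 37.7%. HDAC6 (1 of 1) belonged to a class with 34.9%, and HDAC3 (0 of 1) to a class with 32.6%. With 1 to 4 genes in a class, these counts are a description only. Even among the longest genes, 5.28% had at least 5 RUNX2 peaks and 3.40% had at least 6. All 9 genes had a CBFB peak, against 74.0%, 67.1%, 63.6% and 58.8% of these classes, from the longest to the shortest. The mean number of CBFB peaks in the longest class was 3.14, against 1.66 over all genes.

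For RUNX2, length changed the picture for HDAC4 but not for the 2 TLE genes. Per 100 kb of gene and flanks, TLE1 had 3.21 RUNX2 peaks, TLE4 2.93, HDAC5 2.06, HDAC6 1.36, HDAC7 0.996 and HDAC4 0.744. The values of TLE1 and TLE4 were at or above those of 95.9% and 94.8% of all genes, and that of HDAC4 of 70.1%. A gene with no RUNX2 peak stood at 64.0% on this scale. For CBFB peaks per 100 kb, TLE1 and TLE4 were at or above 96.2% and 83.6% of all genes. The other members ran from 47.2% at HDAC7 to 71.8% at HDAC5, with HDAC4 at 58.0%. A gene with no CBFB peak stood at 37.8%. The neighbourhood differed as well. From 25 kb to 1 Mb around TLE1, RUNX2 had 1.44 peaks per 100 kb, the densest surroundings of the 9 genes. Around TLE4 it had 0.462, and around HDAC4 0.359. TLE2, with no RUNX2 peak of its own, lay in surroundings with 1.28 peaks per 100 kb, whereas those of TLE3 and HDAC3 had 0.564 and 0.615.

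For 3 of the 9 genes, TLE2, TLE3 and HDAC3, CBFB was found without RUNX2, and the same held for 27.1% of all protein-coding genes. The CBFB list is 2.74 times as long as the RUNX2 list. When it was limited to its highest-scoring peaks so that both lists had the same length, TLE2 kept 1 CBFB peak, and TLE3 and HDAC3 kept none.

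The share of RUNX2 peaks at the 9 genes with a CBFB peak, sharing 1 bp or more, was 18 of 18, or 100% (exact 95% interval 81.5 to 100). In the whole RUNX2 list it was 94.2%. This interval and those below cover counting error only. Of these peaks, 15 of 18 lay wholly inside the CBFB peak, as did 77.7% of the whole RUNX2 list. The other 3, at TLE1, HDAC4 and HDAC5, were covered over 86.5%, 92.0% and 98.0% of their length. Midpoints of paired peaks lay a median of 74.5 bp apart, with a range of 4 to 1345 bp. The largest gap belonged to the weakest TLE4 peak under its wide CBFB peak.

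Seen from CBFB, 17 of 32 peaks shared bases with RUNX2, or 53.1% (34.7 to 70.9), beside 33.8% of the whole CBFB list. The 15 CBFB peaks without RUNX2 were split, with 10 at genes that had RUNX2 elsewhere and 5 at TLE2, TLE3 and HDAC3. Their median score was 99.4, with a range of 61.51 to 659.02, and that of all CBFB peaks without RUNX2 was 91.2. The CBFB peaks that overlapped RUNX2 at the 9 genes had a median of 475, and those of the whole list 278.

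The RUNX2 peaks at these genes ranked above the middle of the list more often than below it. Their median score was 153, against 84.1 for the list, and 12 of the 18 were at or above the latter. The strongest peaks of TLE4, HDAC4 and HDAC5 were among the top 10% of the list, with scores of at least 204. For CBFB the median was 250 against 121, and 11 of 32 peaks were in the top 10%, with scores of at least 455. The ranks of paired peaks went together, with a Spearman's rho of 0.65 over the 18 pairs. This is given as a description, since pairs of a gene share a locus and 2 pairs share a CBFB peak.

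**Figure D3:**
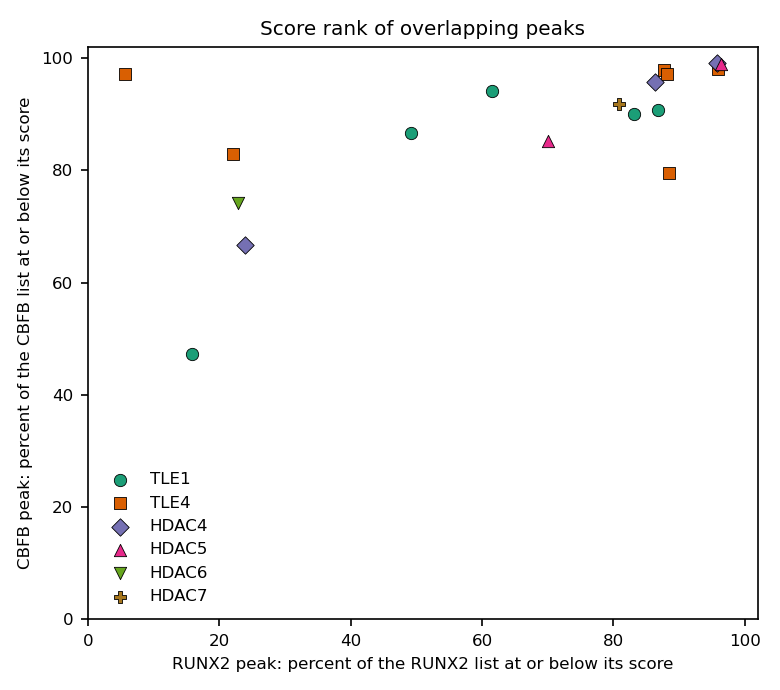
Each point is 1 RUNX2 peak and the CBFB peak it overlaps, placed by the percent of the RUNX2 list (x axis) and of the CBFB list (y axis) with a score at or below theirs. The 3 RUNX2 peaks at 95.8% to 96.4% (TLE4, HDAC4, HDAC5) pair with CBFB peaks at 98.0% to 99.1%, and the TLE4 point at 5.71% shares its CBFB peak with a stronger one.

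The next question was where on these genes RUNX2 was found. With the promoter taken as 5 kb to either side of any annotated start, 6 of the 9 genes had a RUNX2 peak midpoint in a promoter, against 16.8% of all genes, and 7 had a CBFB midpoint there, against 37.9%. Within 1 kb of a start, 5 genes had a RUNX2 midpoint, against 11.6%, and 6 had a CBFB midpoint, against 28.7%. These shares depend on how many starts are annotated, which ran from 7 for TLE1 to 52 for HDAC6. At HDAC7, for example, the start was an alternative one. Of the 18 midpoints, 13 lay inside the gene, 2 upstream of it and 3 past its end. In all, 11 were in introns, 1 of them that of TLE1-DT.

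The RUNX2 peaks at gene starts mostly had low scores. The 5 RUNX2 peaks within 1 kb of a start of their gene scored from 60.72 to 146.98, with a median of 61.8. The 9 peaks over 5 kb from any such start scored from 52.36 to 296.98, with a median of 186, and the 4 in between had a median of 139. The groups overlap, and 2 peaks far from a start, at TLE1 and TLE4, were lower than all 5 at starts. The far peaks came from TLE1, TLE4 and HDAC4 only, most of them from TLE1 and TLE4. The start peaks came from TLE4, HDAC4, HDAC5, HDAC6 and HDAC7, so distance and gene are largely mixed in this contrast. Over the whole RUNX2 list, the medians within 1 kb of any start and over 5 kb from every start were 84.0 and 84.2. In TLE4, HDAC4 and HDAC5, which had peaks both within 1 kb of a start and elsewhere, the highest score was elsewhere in 3 of 3, as in 60.1% of the genes with both kinds.

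**Figure D4:**
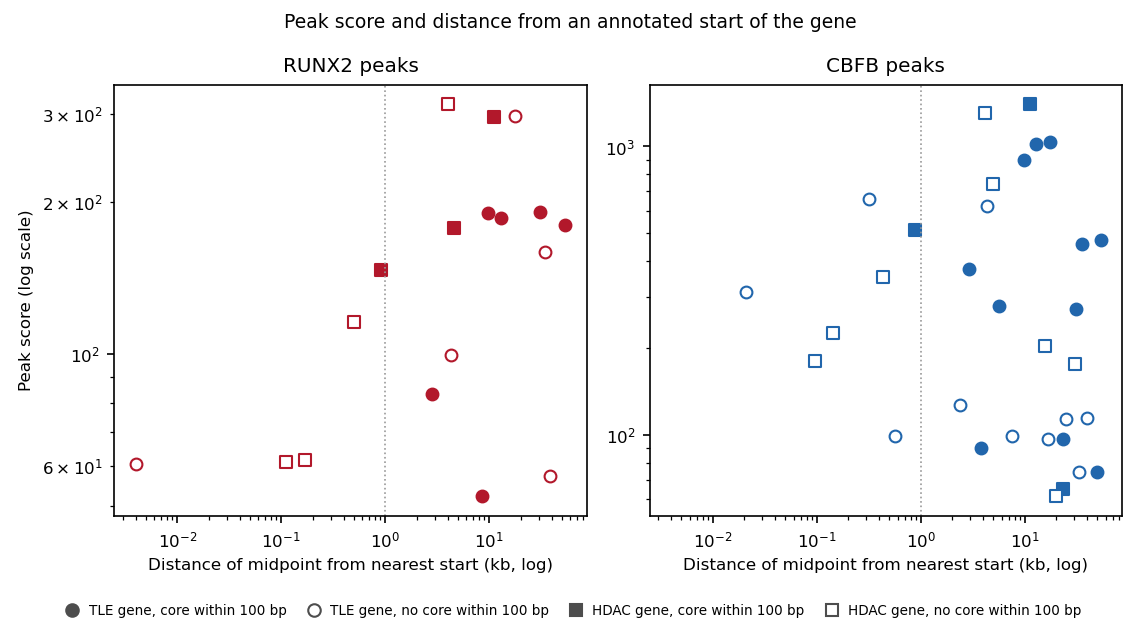
Score of each RUNX2 peak (left) and CBFB peak (right) at the 9 genes on a log axis, against the distance of its midpoint from the nearest annotated start of the gene in kb on a log axis, with the dotted line at 1 kb. Circles are TLE genes, squares HDAC genes, and filled symbols hold the core within 100 bp of the midpoint, which 1 of the 5 RUNX2 peaks left of the line does.

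The core motif was unevenly spread over the same peaks. It was within 100 bp of the midpoint in 9 of the 18 RUNX2 peaks, a share with an exact interval of 26.0% to 74.0%, beside 43.2% of the list. It was anywhere in the peak in 15 of 18, or 83.3% (58.6 to 96.4), beside 78.1%. The 3 peaks without any core were those at the starts of TLE4, HDAC4 and HDAC5. Within 1 kb of a start of their gene, 1 of 5 peaks had a central core, the one at HDAC7, while over 5 kb away 6 of 9 did. Most of those 9 were peaks of TLE1 and TLE4, so gene and distance are mixed here too. The whole list, where distance was taken to the nearest start of any gene, showed the same order. A central core was in 24.6% of its peaks within 1 kb of a start (23.0 to 26.3) and 50.8% of those over 5 kb away (49.4 to 52.1).

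Base composition moved with this split, in which the far peaks were mostly those of TLE1 and TLE4. The mean GC content was 64.9% in the 5 start peaks and 40.9% in the 9 far peaks, from 79.1% at the TLE4 start to 25.4% in the weakest TLE4 peak. In the whole list, with distance taken to the nearest start of any gene, the means were 58.9% and 47.0%. The part of base composition in the difference in core content was not tested.

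For CBFB the central core was present in 14 of 32 peaks, or 43.8% (26.4 to 62.3), beside 41.6% of the CBFB list. Of the 17 that overlapped RUNX2, 9 had it, or 52.9% (27.8 to 77.0), beside 41.8% of such peaks in the whole list. Of the 15 that did not, 5 had it, or 33.3% (11.8 to 61.6), beside 41.6% of all CBFB peaks without RUNX2. The intervals at the 9 genes overlap and hold the shares of the whole list. CBFB scores at starts did not show the order seen for RUNX2, with a median of 314 over 7 peaks within 1 kb, of 500 over 6 peaks from 1 to 5 kb and of 177 over 19 peaks more than 5 kb away. In the whole CBFB list the medians within 1 kb of any start and over 5 kb from every start were 123 and 121.

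Letters of other common motifs were counted in the same 201 bases, on both strands. The AP-1 letters, TGANTCA, were in 0 of the 18 RUNX2 peaks (exact upper bound 18.5%), beside 13.1% of the list. The ETS letters, CCGGAA, were in 2 of 18, at the starts of TLE4 and HDAC5, beside 6.10% of the list. The TEAD letters, GGAATG, were in 3 of 18, beside 15.5%. The GC box GGGCGG was in 1 of 18, at the HDAC6 start, beside 13.7%. The list's share was inside the exact interval of each of these 4 counts.

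Other corepressor genes gave a wider frame. A list of 19 further genes of the TLE and HDAC families and of the complexes they join had a RUNX2 peak at 10 and a CBFB peak at 17, against 36.0% and 62.2% of all genes. HDAC9, the class IIa gene outside the 9, spans 915 kb, with 0.414 RUNX2 and 1.45 CBFB peaks per 100 kb of gene and flanks. In number it had 4 RUNX2 and 14 CBFB peaks. Among the class I genes, HDAC2 had 3 and 7, HDAC1 had 1 and 1, and HDAC8 had neither. TBL1X, a subunit of HDAC3 complexes, had 2 and 5.

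A single RUNX2 peak was found at NCOR1, a scaffold that holds HDAC3, at SIN3B of the SIN3 complex, at CTBP1, at RCOR1 of the CoREST complex and at the histone methyltransferase gene SUV39H1. CBFB without RUNX2 was found at TLE5 and TLE6, the short or divergent Groucho genes, at HDAC10, HDAC11, TBL1XR1, GPS2 and CTBP2. SIN3A had no peak in either list. The RUNX2 peaks of SIN3B, CTBP1 and SUV39H1 lay 16.5, 16.4 and 18.7 kb outside the gene body, and that of HDAC1 3.49 kb outside. By score, 3.10% of the RUNX2 list was at or below the HDAC1 peak, 18.1% for NCOR1 and 28.5% for SUV39H1. The values were 41.6% for SIN3B, 69.6% for RCOR1 and 91.2% for CTBP1. With a reach of 5 or 10 kb, 7 of the 19 genes had a RUNX2 peak. TLE2, TLE5 and TLE6 are neighbours on chromosome 19, so their windows share peaks, and no RUNX2 peak was found at any of them.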

How the data were processed

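RUNX2 ChIP, CBFB ChIP and input DNA from SAOS2 cells were sequenced by the authors, 1 library each. The authors' deposited files list peaks with a score, 9941 for RUNX2 and 27246 for CBFB. The submitters' processing notes name CASAVA 1.8.2, MACS 1.4.1 and hg19. The calling threshold, the aligner settings and whether the input served as control are not given in the sources used here. The deposited score was taken as the MACS value, -10 times log10 of the p-value, from the peak names and the range of 50 to 3100. It depends on depth, so it was ranked within a list only. How far depth or the antibody sets the length of a list was not tested.

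Peaks were assigned to GENCODE release 44 genes mapped to GRCh37 when any base lay within 25 kb of the gene body. A promoter was 5 kb to either side of any annotated start, judged by the peak midpoint. Overlap meant at least 1 shared base, and shares carry exact Clopper-Pearson 95% intervals. Peaks off chromosomes 1 to 22, X and Y (13 RUNX2, 42 CBFB) were left out of the gene and motif steps. The core was searched for on both strands within 100 bp of the midpoint. No test was run, since there are no replicates and peaks are not replicates.

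All 9 genes were named with every RUNX2 peak. CBFB peaks were named where they overlapped RUNX2, scored highest at their gene or lay in a promoter, and the scores of the others are listed. The members, the lists and the choices were made with earlier results of these data known. The peaks of 1 gene of the wider corepressor list are not reported here. Alternatives covered the reach, the score limit, the overlap rule, the promoter width, a CBFB list of equal length, a longer motif and other motif windows. The steps were tested on simulated peaks placed at known positions. Python 3.11.15, numpy 2.4.6, pandas 2.3.3, scipy 1.17.1, pysam 0.24.0 and matplotlib 3.10.9 were used.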

Additional observations from a re-analysis of the deposited data

How the results depend on the processing

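Of 74 alternative values over 12 results, 60 kept within 1.5 times the main count or inside the interval of the share, and 14 moved. With only peaks scoring at least 100, 11 RUNX2 peaks remained at the genes. Requiring an overlap of 50% of each peak, or midpoints within 200 bp, lowered the share of RUNX2 peaks paired with CBFB to 72.2% in both cases. The core was in 5 RUNX2 and 8 CBFB peaks within 50 bp of the midpoint, in 15 and 27 anywhere in the peak, and in 3 and 5 when TGTGGTT was required. With peaks at or above the median score, 21 CBFB peaks were counted at the genes and 5 of the other corepressor genes had a RUNX2 peak. With the CBFB list limited to the length of the RUNX2 list, 20 CBFB peaks remained and 80.0% of them overlapped RUNX2. Each of these alternatives takes fewer peaks or a stricter or looser rule, and what set the size of each shift was not tested.

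With a reach of 100 kb, chosen after seeing the data, 59 CBFB peaks were counted, and RUNX2 was at 8 genes, where TLE3 and HDAC3 gained 1 peak each. RUNX2 was at 6 genes for a reach of 0, 5 or 50 kb, and at 5 with peaks at or above the median score or of at least 100, where HDAC6 was lost. CBFB was at 8 genes for a reach of 0 or 5 kb and under either of these score limits, where HDAC3 was lost. No paired analysis was possible because there is only 1 library for each antibody, and for the same reason none was left out. The depth is unknown, so a gene without a peak is only one with no peak in a list whose scores begin at 50. The threshold that the authors set is not given. All values are of 1 cell line.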
